A study of Mus musculus with 25 samples.

Results

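Lungs of wild-type (WT) mice taken on Day 14 after bleomycin were compared with lungs of WT mice taken on Day 0. The comparison holds the 5 arrays titled as WT mice of Day 14 (No. 1 to 5) and the 4 titled as WT mice of Day 0 (No. 1 to 4), 9 of the 25 arrays of the series, and each array is taken as 1 mouse. All were female, and WT here means without the knockout of FP, the receptor for prostaglandin F2α, which the other mice of the series carry. Bleomycin, an anticancer drug that injures the alveolar wall, went into the trachea on Day 0 at 1 mg/kg in 40 ul of saline. The labels give the Day 0 mice the same treatment text. They do not say whether those lungs were taken before or after instillation, and strain, age and any saline-treated group are not given in the sources used here. RNA of whole lung was measured on Affymetrix mouse genome arrays, which read each transcript as the intensity of a probe set, a group of short DNA probes. The 4 WT lungs of Day 7 are used only to say where Day 14 differed from Day 7.

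In the bleomycin model, injury of the alveolar epithelium and endothelium is followed by entry of inflammatory cells and then by deposition of collagen, elastin and other matrix by fibroblasts. Transforming growth factor beta is the best known inducer of matrix genes in these cells, lysyl oxidases crosslink the new fibres, and metalloproteinases and lysosomal cathepsins degrade matrix. Macrophages of monocyte origin, dividing cells and epithelial cells in transition to the alveolar type 1 state are known components of the injured lung. In RNA of whole tissue, fewer cells of a type and less RNA per cell cannot be told apart.

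The Day 14 lungs fell into 2 sets, No. 1-3 and No. 4-5, which an earlier look at these arrays had shown, so that differences between the sets are described here and not tested. Pearson correlations between arrays, over all probe sets but the controls, were 0.985 to 0.987 within No. 1-3 and 0.984 within No. 4-5. They were 0.973 to 0.979 between the sets, against 0.976 to 0.986 among the Day 0 arrays. On the second principal component, with 16.9% of the variance between arrays, No. 1-3 lay at 27.6 to 28.5 and No. 4-5 at 1.35 and -2.28. The sources used here do not say what sets the arrays apart. The 3′ to 5′ intensity ratio of the actin probe sets, a sign of RNA integrity, was 1.34 to 1.62 in Day 0 lungs and 1.21 to 1.40 in Day 14 lungs, and the signal of the 18S ribosomal RNA probe set with the highest values was 674.5 in Day 0 No. 1, 557.1 and 335.8 in Day 14 No. 1 and No. 3 and 63.6 to 154.7 in the other 6 arrays. The part of either in the results was not tested. The labelled tissue could be read in the arrays. Surfactant protein C, Sftpc, of alveolar type 2 cells had intensities of 31499.6 to 34164 in Day 0 lungs and 32185 to 34788 in Day 14 lungs, and Ager, a type 1 marker, of 24843 to 25442 and 26332 to 29231. Precision is limited by how many arrays each group has.

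Of 12062 genes tested, 2306 rose (19.1%) and 2358 fell (19.5%) in Day 14 lungs against Day 0, at an adjusted p under 0.05 over all genes (limma, Benjamini-Hochberg). These shares are the background for every count of a gene group given here. The median log2 difference over all genes was -0.01. Genes that rose had a median difference of 0.57 and genes that fell one of -0.50, so that most changes were small. A log2 difference of at least 1 was reached by 487 genes up (4.04%) and 214 down (1.77%), and the 5 Day 14 lungs did not overlap the 4 Day 0 lungs in 1787 genes up (14.8%) and 1651 down (13.7%).

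Nearly all of these genes had the same direction in both sets of Day 14 lungs, and 45.9% of those that rose and 37.4% of those that fell passed in both. Of the 2306 genes that rose, 2302 were above Day 0 in both sets, and of the 2358 that fell, 2355 were below. The genes were called on the mean of these same lungs, so a shared direction was likely beforehand and is no separate support. Set against the same Day 0 mice, No. 1-3 had 2565 genes up (21.3%) and 2641 down (21.9%), and No. 4-5, with fewer arrays, 1188 up (9.85%) and 1058 down (8.77%). With each array scaled to a common median in place of quantile normalization, No. 1-3 had 2621 genes up and 1709 down. Genes that passed as a whole and in each set in the same direction numbered 1059 up (8.78%) and 881 down (7.30%), and such genes are called changed in both sets from here on. The 2 sets share the Day 0 mice, so the count is no independent support, and it rests on few arrays: it was 429 up and 244 down without Day 14 No. 4, and 684 and 550 without No. 5. It was 810 and 516 with a common median, and 655 and 492 with mouse number as a block. Among the larger changes the share was higher, with 435 of 487 genes up (89.3%) and 160 of 214 down (74.8%) changed in both sets. Here too the genes were picked on the values of the same lungs. Over the genes changed in both sets the median size of the difference was 0.77 in No. 1-3 and 0.69 in No. 4-5. The 7 genes whose sign turned in No. 4-5 (Btd, Naa15, Pex5 and Ubl7 of those that rose, Fam222b, Pak1ip1 and Rufy3 of those that fell) are singled out after their values were seen, and none of them passed the opposite way in that set.

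**Figure D1:**
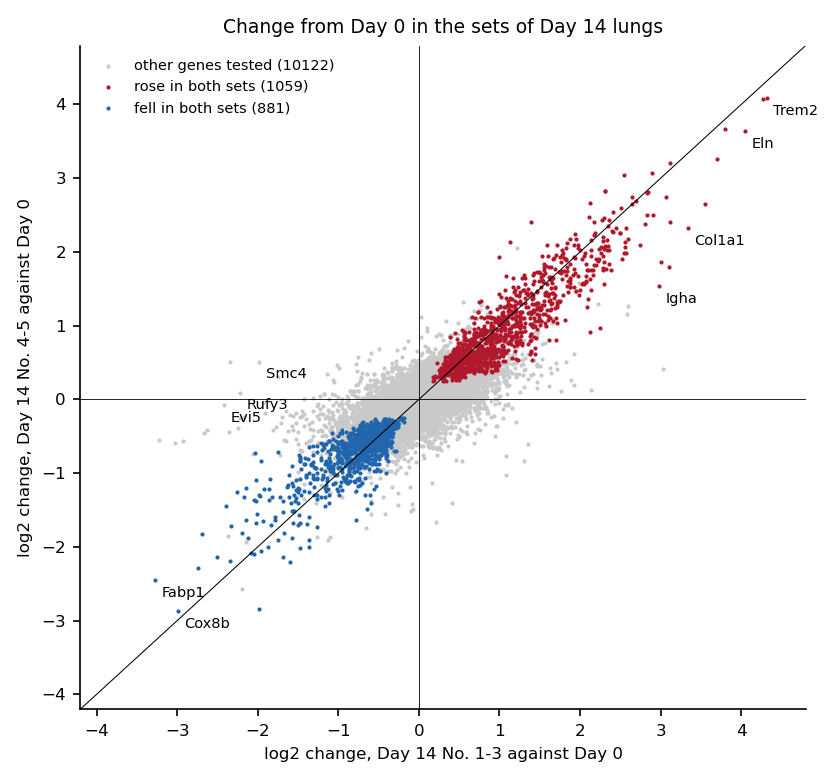
Log2 change from Day 0 in Day 14 No. 1-3 (horizontal) and No. 4-5 (vertical), 1 point per gene tested, with genes that rose (1059) or fell (881) in both sets in colour and the line of equal change. Most large rises and falls lie near the line. Evi5, Smc4 and Rufy3, each read by its brightest probe set, lie far below Day 0 in No. 1-3 alone.

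The 14 largest rises were found in genes of several kinds, matrix and macrophage genes among them. These rises, and the largest falls given below, were ranked only among genes whose Day 14 and Day 0 lungs did not overlap. Trem2, a lipid-sensing receptor of macrophages, had intensities of 37.6, 24.4, 56.5 and 31.2 in the 4 Day 0 lungs, 673, 722 and 741 in Day 14 No. 1-3 and 568 and 651 in No. 4-5. No Day 14 lung came near the Day 0 lungs, and the difference was 4.23 ± 0.50 in log2 units (± standard error throughout; adjusted p = 1.47e-06). With 1 Day 0 array at the floor, the lowest intensity kept (24.4), and the others near it, the size depends on the setting, and it was 2.74 with a floor of 100 and 2.00 for the mean of all Trem2 probe sets. Mmp12, the macrophage elastase, read 139.7, 200.3, 111 and 147 on Day 0 and 3231, 3291 and 2092, then 2583 and 2355 in the same order of sets (4.19 ± 0.52). Its substrate elastin, Eln, went from 1184, 987, 728 and 682 to 13966, 15157 and 14264 in No. 1-3 and 12136 and 9784 in No. 4-5 (3.89 ± 0.36, adjusted p = 1.15e-07). Eln stood among the brightest genes of the Day 14 lungs, and its 2 sets did not overlap each other, with No. 1-3 the higher. Tenascin C, Tnc, a matrix glycoprotein of wounds, read 262, 297, 166 and 153 on Day 0 and 2282 to 3378 on Day 14 (3.75 ± 0.37).

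Col1a1, the main chain of type I collagen, read 1011, 1053, 1250.1 and 998 on Day 0, 10513, 12312 and 9956 in No. 1-3 and 5839 and 4890.5 in No. 4-5. All Day 14 lungs lay above Day 0, and the rise of 7.63-fold as a whole (2.93 ± 0.23, adjusted p = 5.86e-08) was 3.34 in No. 1-3 and 2.32 in No. 4-5. The size depends on the probe set, as the other Col1a1 probe set lay at 1.48, with No. 1-3 above No. 4-5 by 0.60. The acute-phase protein Saa3 rose by 2.94 ± 0.36, and Timp1, an inhibitor of metalloproteinases, by 2.82 ± 0.26, with 2.84 and 2.81 in the sets. Nrcam, a cell adhesion molecule (2.82 ± 0.33), Gpnmb, a glycoprotein of lipid-laden macrophages (2.74 ± 0.36), the protease Adamts12 (2.69 ± 0.33), Wfdc17, a secreted protein of activated macrophages (2.68 ± 0.33), the spindle protein Psrc1 (2.64 ± 0.27) and the complement chain C1qb (2.63 ± 0.26) followed. The epithelial 14-3-3 protein Sfn completed the 14, at 2.59 ± 0.39, and differed more between the sets, with 3.11 in No. 1-3 and 1.80 in No. 4-5. Genes with more than 1 Day 0 array at the floor were not ranked, as their differences are bounds.

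Among the 12 genes that fell most were genes known from heart muscle and fat and several metabolic enzymes. Cox8b, a cytochrome oxidase subunit of heart, muscle and brown fat, read 1924, 828, 721 and 911 on Day 0, 181, 82.8 and 138 in Day 14 No. 1-3 and 104 and 184 in No. 4-5, without overlap (-2.94, adjusted p = 3.42e-07). Fabp1, a fatty acid carrier, went from 702, 651, 878 and 734 to 69.5, 65.4 and 98.1 and 106 and 172 (-2.94). Adiponectin, Adipoq (-2.56), the lipogenic regulator Thrsp (-2.37), the atrial peptide Nppa (-2.34) and the muscle protein Smpx (-2.09) fell with them. Bex2, a small adaptor protein on chromosome X (-2.28), carbonic anhydrase 3 of fat and muscle, Car3 (-2.08), and the growth factor carrier Fgfbp1 (-2.07) are also among the 12. Fgfbp1 read 603 to 1117 on Day 0 and 181 to 222 on Day 14, so that the groups stood apart. The enzymes among them were the glutathione transferase Gsta2 (-2.04), the cytochrome Cyp2e1 (-2.03) and the peroxisomal thiolase Acaa1b (-2.02).

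**Figure D2:**
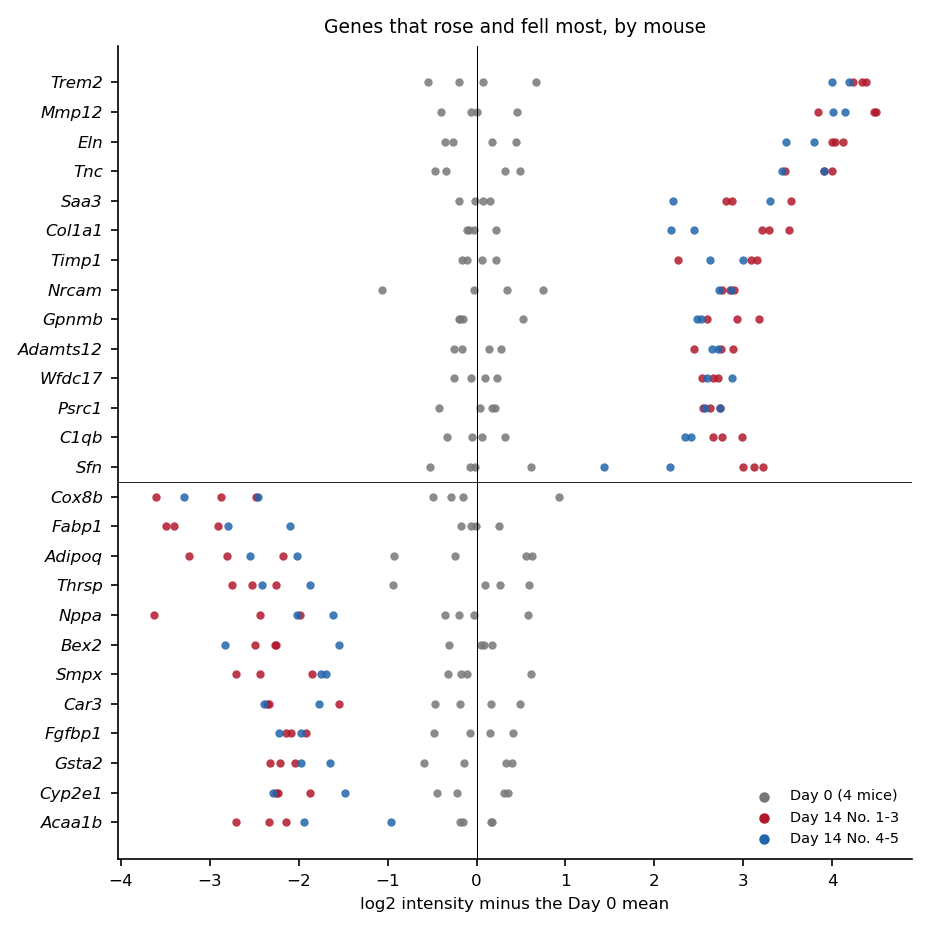
Log2 intensity of each mouse minus the Day 0 mean for the 14 largest rises and the 12 largest falls among genes changed in both sets, with Day 0 in grey, Day 14 No. 1-3 in red and No. 4-5 in blue. Only genes whose Day 14 and Day 0 points do not overlap were ranked, so the gap between these groups was set by the choice. The red mean lies above the blue one by 1.02 for Col1a1 and by 1.31 for Sfn.

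Matrix genes rose as groups. Of 7 fibrillar collagen chains tested, which form the load-bearing fibres, 6 rose, all of them in both sets, and the median difference over the 7 was 1.69, beside -0.01 over all genes. The type V chains Col5a2 (2.08 ± 0.21), Col5a3 (1.88 ± 0.22) and Col5a1 (1.69 ± 0.20), which set fibre diameter, rose beside Col1a2 (1.57 ± 0.13) and Col3a1 (1.53 ± 0.15), and Col27a1 was at 0.16, adjusted p = 0.479. The order of the chains depends on the probe set, as other probe sets of Col1a2 and Col3a1 lay higher, at 2.76 and 2.87. Col3a1 was already bright on Day 0, at 7419.7 to 10527, and reached 25266 to 28916. In a list of 12 other collagens 9 rose (8 in both sets). The type VI chain Col6a3 (1.34), Col16a1 (1.24) and Col18a1 (1.08) were among them, and the transmembrane collagen Col23a1 fell (-0.60). Col12a1 rose by 1.06 as a whole, with 1.36 in No. 1-3 and 0.61 in No. 4-5, and did not pass in the second set.

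Elastic fibre genes rose in 10 of 13 and 6 rose in both sets. Beside Eln these were led by Ltbp2, a latent TGF-beta binding protein (2.21 ± 0.20), the elastin-coating Emilin1 (1.42 ± 0.19) and the microfibril proteins Mfap4 (1.37 ± 0.18) and Mfap5 (1.33 ± 0.22). Efemp1, an elastin-related fibulin, fell (-0.87). Ltbp2 read 807, 1245, 1244 and 972 on Day 0, 4753, 5441 and 5697 in No. 1-3 and 4246 and 4262 in No. 4-5, without overlap with Day 0. Of 19 basement membrane genes 13 rose and none fell (9 in both sets), with the laminin chain Lamb3 of epithelial basement membranes at 1.32 ± 0.13, the type IV collagen chains Col4a2 (1.00 ± 0.10) and Col4a1 (0.94 ± 0.11), and Agrn, agrin, at 0.83 ± 0.10. Lama1 was at the floor in 4 of 4 Day 0 lungs and at 117 to 282 on Day 14, so its log2 difference of 2.83 is a bound. Of the other type IV chains Col4a5 (0.66) and Col4a4 (0.31) rose, and Col4a3 was at -0.02, adjusted p = 0.936 and Col4a6 at 0.06, adjusted p = 0.758.

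Matricellular proteins and other matrix glycoproteins rose in 12 of 20 and fell in 3, 10 and 2 of these in both sets. Thrombospondins 1 and 2, Thbs1 (1.74 ± 0.22) and Thbs2 (1.99 ± 0.33), fibronectin, Fn1 (1.72 ± 0.16), and Ccn4, a Wnt-induced secreted protein (1.73 ± 0.24), rose in both sets, as did Cthrc1, which marks collagen-producing fibroblasts of scars (1.43 ± 0.20). Vitronectin, Vtn (-0.80), and Ccn3 (-0.73) fell. Thbs4 was at the floor in 4 of 4 Day 0 lungs and at 130.0 to 382 on Day 14. Periostin, Postn, rose by only 0.24 ± 0.09 from a high level of 6076 to 8628 on Day 0, and did not pass under 14 of 24 alternatives. Proteoglycans and hyaluronan genes split, with 8 up and 4 down of 16 (5 and 2 in both sets). Fibromodulin, Fmod (1.77 ± 0.17), versican, Vcan (1.76 ± 0.24), and asporin, Aspn (1.05 ± 0.12), rose, while the small leucine-rich proteoglycans osteomodulin, Omd (-1.11), and mimecan, Ogn (-0.90), fell, and decorin, Dcn, was at -0.33, adjusted p = 0.061. All 6 Fmod probe sets that could be tested passed in the same direction.

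Of 18 genes that process and crosslink collagen, 10 rose, 9 of them in both sets, and 2 fell, 1 in both sets. Lysyl oxidase, Lox, read 1479.8, 1589, 1034 and 803 on Day 0, 2962, 3974 and 4896 in No. 1-3 and 3075 and 2682 in No. 4-5 (1.54 ± 0.32). It rose in both sets, like its relatives Loxl1 (1.31 ± 0.11) and Loxl3 (1.00 ± 0.17), the collagen chaperone Serpinh1 (1.04 ± 0.14) and the procollagen C-proteinase Bmp1 (1.03 ± 0.15). The proteinase enhancer Pcolce2 fell (-1.19), and the transglutaminase Tgm2 was at -0.01, adjusted p = 0.926, with a mean over all its probe sets of 0.27 that passed.

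Genes that degrade matrix rose beside those that build it. Of 23 matrix proteases and their inhibitors 15 rose and 2 fell (12 and 2 in both sets). After Mmp12 came Mmp13, the main mouse collagenase (2.24 ± 0.38), Mmp19 (2.23 ± 0.22), the gelatinase Mmp2 (2.05 ± 0.19) and its membrane-bound activator Mmp14 (1.82 ± 0.16). The neutrophil gelatinase Mmp9 fell (-1.11), from 337 to 351 to 111 to 199, and so did the aggrecanase Adamts5 (-0.69). Lysosomal proteases rose in 12 of 13 (9 in both sets), among them cathepsins K, D and S, Ctsk (2.01 ± 0.22), Ctsd (1.41 ± 0.12) and Ctss (1.39 ± 0.17), and legumain, Lgmn (1.39 ± 0.16).

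Of 23 genes of TGF-beta and activin signalling, 13 rose, 8 of them in both sets, and 3 fell, 2 in both sets. Among ligands Tgfb3 (0.91 ± 0.11), Tgfb1 (0.83 ± 0.13) and the activin chains Inhbb (1.03 ± 0.11) and Inhba (1.56 ± 0.48) rose, and Tgfb2 was at -0.10, adjusted p = 0.83, with a mean over all its probe sets of 0.59 that passed. The integrin chain Itgb6, part of an epithelial activator of latent TGF-beta, rose (1.00 ± 0.24). Of the receptors Tgfbr1 (0.56 ± 0.09) and Tgfbr2 (0.38 ± 0.08) rose a little and the co-receptor Tgfbr3 fell (-0.92). The induced target Pmepa1 rose (1.07 ± 0.14), whereas the inhibitory Smad6 (-1.10) and Smad7 (-0.42) fell. BMP ligands, receptors and antagonists fell in 5 of 12 (4 in both sets), with the antagonist Chrdl1 at -1.83 and the ligands Bmp2 (-1.16) and Bmp6 (-1.03), and Gdf10 rose (0.96). The immediate BMP target Id1 was at -0.07, adjusted p = 0.715.

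Wnt pathway genes went both ways, 8 up and 4 down of 17 (6 and 1 in both sets). The secreted antagonists Frzb (2.34 ± 0.40) and Sfrp1 (1.97 ± 0.22) rose most, with the ligands Wnt7b (1.08 ± 0.21) and Wnt5a (1.03 ± 0.17), while Wnt2 of resident lung fibroblasts (-0.70), the transcription factor Lef1 (-0.79) and the target Axin2 (-0.43) fell. The mean of all Axin2 probe sets was at 0.18 and did not pass. Frzb read 48.7, 46.1, 44.3 and 24.4 on Day 0, 138, 296 and 319 in No. 1-3 and 164 and 150.3 in No. 4-5. Of 33 other growth factors, binding proteins and receptors 10 rose and 13 fell (7 and 6 in both sets). Igf1, a growth factor made by macrophages and fibroblasts, rose (2.47 ± 0.23), as did Lif (1.52 ± 0.24). Among IGF carriers Igfbp2 rose (1.30 ± 0.12), and Igfbp3 (-1.84) and Igfbp6 (-1.72) fell. Ereg and Il6 had more than 1 Day 0 lung at the floor, and their Day 14 intensities ran from 185 to 282 and from 77.8 to 155.

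Contractile genes did not follow the matrix genes. Smooth muscle actin, Acta2, the classical marker of myofibroblasts, read 10099, 8045, 12789 and 11804 on Day 0, 10002, 10780.2 and 11634 in No. 1-3 and 9901 and 9185 in No. 4-5. The groups overlapped in full (-0.04, adjusted p = 0.844). Of 16 contractile and myofibroblast genes 4 rose, 2 of them in both sets. These were fibroblast activation protein, Fap (0.79 ± 0.21), the tropomyosin Tpm1 (0.65 ± 0.09), smoothelin, Smtn (0.61 ± 0.15), and the cadherin Cdh11 (0.49 ± 0.13), and Synpo2 (-0.84) and Cnn1 (-0.32) fell. The mean of all Tpm1 probe sets was at -0.08 and did not pass. Markers of resident lung fibroblasts fell in 10 of 15 and rose in 2 (7 and 1 in both sets). Among those that fell were the receptor Fgfr4 (-0.99), the methyltransferase Inmt (-0.87), the ferritin receptor Scara5 (-0.85) and the integrin chain Itga8 (-0.78). Mesothelial markers, of the pleural lining, fell in 5 of 8 (4 in both sets), led by Lrrn4 (-0.97) and Gpm6a (-0.96), and mesothelin, Msln, rose (0.66). Of 11 pericyte genes 3 rose and 1 fell, none in both sets, with Rgs5 at 0.99.

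Genes of cell division rose nearly as a whole group. Of 23 genes of mitosis tested, 21 rose, each of them in both sets, with a median difference of 1.85, 1.93 in No. 1-3 and 1.74 in No. 4-5. The mitotic kinase Cdk1 read 137, 204, 139 and 175 on Day 0, 789, 1007 and 979 in No. 1-3 and 1019 and 947 in No. 4-5 (2.55 ± 0.30, adjusted p = 1.2e-06). Mki67, the proliferation marker (2.39 ± 0.22), the centromere protein Cenpf (2.35 ± 0.24), the kinesin Kif2c (2.16 ± 0.34), the spindle assembly factor Tpx2 (2.15 ± 0.23), the anaphase activator Cdc20 (1.93 ± 0.20) and the midzone protein Prc1 (1.97 ± 0.21) rose to a like extent. Foxm1, a regulator of these genes, did not pass (0.90, adjusted p = 0.0851). S phase genes rose in 16 of 18 (13 in both sets), with thymidine kinase, Tk1 (2.00 ± 0.28), the reductase Rrm2 (1.86 ± 0.27) and Uhrf1 (1.80 ± 0.26), while Pcna was at 0.23, adjusted p = 0.0895. Targets of p53, a transcription factor activated by DNA damage, rose in 11 of 17 and fell in 2 (10 and 1 in both sets). Cdkn1a, which stops the cell cycle, rose (2.14 ± 0.30), as did the receptor Eda2r (1.79 ± 0.25), Phlda3 (1.34 ± 0.15) and the spindle proteins Psrc1 and Ckap2 (2.23 ± 0.26), which serve in mitosis as well.

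Most of the mitosis genes hold the same short element in their promoters, and the sequences are shown so that its place can be seen. The window was 300 bases, from 250 before to 50 after the start site (RefSeq, build GRCm38.p6), and 18 of the 23 genes had an entry. The letters TTTGAA, the core of the cell cycle homology region that represses such genes in resting cells, were searched on both strands and lay in 14 of 19 promoters of these genes (73.7%), beside 17.9% of all 32851 promoters. The letters CCAAT, also on both strands, lay in 16 of the 19 (84.2%), beside 37.4% of all. Motifs were chosen after the lists had been seen, and a match is a description of the letters. The runs below are 100 bases of genomic sequence upstream of the start site, 5′ to 3′ on the gene's strand, with TTTGAA or its reverse complement in capitals. They lie at chr10:69352913-69353012 (minus strand) for Cdk1, chr4:118437344-118437443 (minus strand) for Cdc20, chr7:80294376-80294475 (plus strand) for Prc1 and chr19:37376282-37376381 (plus strand) for Kif11, a spindle kinesin that rose by 1.57 ± 0.21.
Cdk1: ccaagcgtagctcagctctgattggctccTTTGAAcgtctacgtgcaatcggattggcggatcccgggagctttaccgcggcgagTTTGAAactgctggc
Cdc20: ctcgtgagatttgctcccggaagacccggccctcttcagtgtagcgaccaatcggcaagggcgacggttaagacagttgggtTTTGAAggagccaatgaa
Prc1: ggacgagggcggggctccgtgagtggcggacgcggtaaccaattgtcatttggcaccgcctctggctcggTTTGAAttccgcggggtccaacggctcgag
Kif11: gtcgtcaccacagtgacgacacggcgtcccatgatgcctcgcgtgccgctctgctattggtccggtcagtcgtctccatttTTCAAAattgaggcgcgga
In these 4 promoters the match nearest the start site begins 15, 18, 30 and 19 bases before it, in the order given. Cdk1 holds a second one in the stretch shown.

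Macrophage genes made up some of the largest rises. Of 17 general macrophage genes 13 rose, 11 in both sets, with the complement chains C1qa (2.40 ± 0.22) and C1qc (2.39 ± 0.22), the scavenger receptor Msr1 (2.33 ± 0.25), Cd68 (1.86 ± 0.24) and the Fc receptor Fcgr1 (1.85 ± 0.22). Lysozyme, Lyz2, read 27891 to 30592 on Day 0 and 28206 to 30863 on Day 14 (0.04, adjusted p = 0.657). Genes of lipid-handling macrophages rose in 10 of 15 (9 in both sets), with Apoe (1.38 ± 0.14) and the phospholipase Pla2g7 (1.46 ± 0.22) after Trem2, Mmp12 and Gpnmb. Markers of resident alveolar macrophages split, 3 up and 5 down of 12 (3 and 4 in both sets). The fatty acid carriers Fabp1 and Fabp4 (-1.26), the lipid droplet protein Cidec (-1.58) and the keratin Krt79 (-1.40) fell, the lectin Siglecf was at -0.27, adjusted p = 0.234, and the integrin Itgax (1.30 ± 0.17) and the proton pump subunit Atp6v0d2 (1.30 ± 0.16) rose. Genes of alternative activation rose in 9 of 13 (5 in both sets), with arginase, Arg1 (2.54 ± 0.50), the resistin-like Retnla (2.06 ± 0.25) and the lectin Clec7a (1.64 ± 0.24). Of 10 monocyte genes 3 rose (1 in both sets), among them Ccr2 (0.65), and Treml4 (-0.75) and Spn (-0.73) of patrolling monocytes fell.

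Among secreted signals of inflammation, 13 of 20 chemokines rose and 2 fell (12 and 0 in both sets). The monocyte attractants Ccl9 (2.36 ± 0.32), Ccl8 (2.35 ± 0.34) and Ccl12 (2.15 ± 0.29) and the interferon-induced Cxcl10 (2.00 ± 0.25) rose most among those with at most 1 Day 0 array at the floor, and Ccl5 (-0.67) and Cx3cl1 (-0.45) fell. Of 14 cytokine and inflammasome genes 6 rose (4 in both sets), with the feedback inhibitor Socs3 at 1.53 ± 0.26, and interleukin 1 beta, Il1b, was at -0.11, adjusted p = 0.767. Complement and acute-phase genes rose in 11 of 17 (7 in both sets), with the receptor C3ar1 (2.18 ± 0.22), lipocalin 2, Lcn2 (1.77 ± 0.16), and the protease inhibitor Serpina3n (1.77 ± 0.21). The receptor C5ar1 rose by 1.10 as a whole but by 1.76 in No. 1-3 and 0.11 in No. 4-5. Among 15 genes of dendritic cells and antigen presentation 11 rose (5 in both sets), for example the transcription factor Batf3 (1.17 ± 0.28), Cd86 (1.01 ± 0.22) and the class II chain H2-Ab1 (0.81 ± 0.13).

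Interferon-stimulated genes rose in 13 of 22 (9 in both sets), with the regulator Irf7 (1.30 ± 0.19), the antiviral Mx1 (1.19 ± 0.25) and Ifit1 (1.09 ± 0.14), while Rsad2 was at 0.23, adjusted p = 0.448 and Gbp2 fell (-0.34). Letters of an interferon response element, GAAANNGAAA on either strand, lay in 11 of 23 promoters of the listed genes (47.8%), beside 3.4% of all promoters, and 5 of the 11 genes with a match were among those that rose. The runs for Cxcl10, at chr5:92349040-92349139 (minus strand), and for Ifit1, at chr19:34640759-34640858 (plus strand), follow with these letters in capitals, upstream of the start site as before.
Cxcl10: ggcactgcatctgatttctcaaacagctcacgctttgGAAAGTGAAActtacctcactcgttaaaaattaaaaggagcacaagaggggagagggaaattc
Ifit1: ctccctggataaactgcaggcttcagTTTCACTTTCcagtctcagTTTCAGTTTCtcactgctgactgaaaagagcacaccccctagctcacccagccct
For the proteases the AP-1 letters TGACTCA, on either strand, lay in 5 of 20 promoters, beside 5.2% of all. Of these 5 genes Mmp12 and Mmp13 rose, and their upstream runs lie at chr9:7347274-7347373 (plus strand) and chr9:7272414-7272513 (plus strand), with TGACTCA or its reverse complement in capitals.
Mmp12: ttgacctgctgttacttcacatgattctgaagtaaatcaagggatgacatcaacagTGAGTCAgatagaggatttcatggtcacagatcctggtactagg
Mmp13: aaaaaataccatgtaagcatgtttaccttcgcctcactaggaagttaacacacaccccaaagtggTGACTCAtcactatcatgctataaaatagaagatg
The motif of Mmp12 begins 44 bases and that of Mmp13 35 bases before the start site.

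NK cell genes fell in most cases, and lists of other lymphocytes and of granulocytes held genes that fell and genes that rose. Markers of natural killer (NK) and cytotoxic cells fell in 10 of 13, 5 of them in both sets. Granzyme A, Gzma, read 2662, 2407, 2845 and 3047 on Day 0, 748, 596 and 538 in No. 1-3 and 1078 and 1300.3 in No. 4-5 (-1.76 ± 0.22). The NK receptors Klra8 (-1.71), Klre1 (-1.33) and Ncr1 (-1.32) fell too, further in No. 1-3 than in No. 4-5. T cell genes fell in 4 of 11 (1 in both sets), the CD8 chains Cd8b1 (-1.06) and Cd8a (-0.98) among them, and the costimulator Icos rose (1.23). B cell genes fell in 6 of 9, but Cd79b (-0.87) alone of these fell in both sets. The B cell list also held 1 gene that was higher, and this was so in both sets. Of 9 plasma cell genes Igha, the heavy chain of IgA (2.41 ± 0.45), and Jchain, which joins IgA units (2.06 ± 0.54), rose. Of these 2 only Igha passed in both sets, and 1 other plasma cell gene was lower in both. A rise in 2 of 9 is near the background of 19.1%. Igha read 2265, 3785, 1619 and 1262 on Day 0, 18219, 12666 and 18356 in No. 1-3 and 5629 and 6299.5 in No. 4-5, and the 2 sets did not overlap. The plasma cell regulators Xbp1 (-0.12, adjusted p = 0.258) and Mzb1 (0.10, adjusted p = 0.75) did not pass. Neutrophil genes fell in 5 and rose in 2 of 11 (2 and 2 in both sets). The receptor Cxcr2 (-1.54, not past the threshold under 7 of 23 alternatives) and the calprotectin chains S100a9 (-1.51) and S100a8 (-1.07) fell. Those that rose were Mmp8 (1.37) and Lcn2. Platelet genes fell in 5 of 9 (2 in both sets), with the platelet chemokine Ppbp at -1.64.

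Alveolar epithelial genes went different ways, most genes of injured epithelium rose, and airway genes that passed mostly fell. Of 14 genes of type 2 cells, which make surfactant, 4 rose and none fell (2 in both sets), with Muc1 (0.66 ± 0.13) and the desaturase Scd1 (0.53 ± 0.11) ahead and Sftpc at 0.01, adjusted p = 0.908. On the values as deposited, without quantile normalization, 2 type 2 genes rose and 1 fell. Type 1 genes, of the flat cells that exchange gas, rose in 5 and fell in 4 of 14 (1 and 1 in both sets). Igfbp2 and the claudin Cldn18 (0.78 ± 0.15) rose, the scaffold Akap5 fell (-0.67), and Ager was at 0.14, adjusted p = 0.135. Genes of injured or transitional epithelium rose in 10 of 13 (9 in both sets), among them Sprr1a, a squamous envelope protein (1.79 ± 0.40), the claudin Cldn4 (1.43 ± 0.35) and the keratins Krt7 (0.80 ± 0.09) and Krt8 (0.76 ± 0.13). Club and goblet cell genes fell in 8 of 15 (6 in both sets), with Cldn10 (-1.25) and the secreted Bpifa1 (-0.98) and Bpifb1 (-0.97), whereas the club cell secretoglobin Scgb1a1 was at -0.04, adjusted p = 0.529. Ciliated cell genes fell in 11 of 18 (7 in both sets), with Tppp3 (-0.88), Dynlrb2 (-0.86) and Hydin (-0.83), and the master regulator Foxj1 was at -0.02, adjusted p = 0.95. The ciliated genes lay lower in No. 4-5 (median -0.64) than in No. 1-3 (-0.39), whereas the fibrillar collagens lay higher in No. 1-3 (1.85 beside 1.46).

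Vessel genes fell more often than they rose. Of 20 general endothelial genes 8 fell and 2 rose (3 and 0 in both sets), with Icam2 (-0.94), Ramp2 (-0.68) and the angiopoietin receptor Tek (-0.61) down in both sets and Pecam1 at -0.00, adjusted p = 0.993. Of 19 genes of vessel subtypes 7 fell and 3 rose (3 and 2 in both sets). Ednrb, of the aerocyte capillary cells, read 4059, 4731, 4893 and 4659 on Day 0 and 1439.8 to 2412 on Day 14 (-1.40), and Ackr1 of venules rose (0.99). Lymphatic genes rose in 4 of 6, none in both sets, with the scavenger receptor Stab1 at 0.55. Among 7 nerve and Schwann cell genes Chl1, an adhesion molecule, was at the floor in 2 of 4 Day 0 lungs and at 251 to 642 on Day 14, and the neurotrophin receptor Ntrk2 rose (0.69).

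Genes of heart muscle fell nearly as a whole group, and most of those of skeletal muscle and fat fell too. Of 16 heart muscle genes 15 fell, 14 of them in both sets, with a median of -1.42. Myoglobin, Mb, read 2262, 1271, 2138 and 1804 on Day 0, 529, 332 and 397 in No. 1-3 and 526 and 650.5 in No. 4-5 (-1.95 ± 0.30). Sarcolipin, Sln (-1.84), the mitochondrial creatine kinase Ckmt2 (-1.77) and the atrial myosin chains Myh6 (-1.56) and Myl7 (-1.48) were lower as well. The mean of these genes per mouse, against the Day 0 mean, was -0.17 to 0.19 on Day 0 and -1.14 to -1.81 on Day 14. Skeletal muscle genes fell in 6 of 7, 3 of them in both sets, and in 3 under a stricter filter or with No. 1-3 as the only Day 14 lungs. Their Day 0 lungs spread from -1.21 to 1.48 and overlapped the Day 14 lungs. Adipocyte genes fell in 7 of 9, 5 of them in both sets (median -1.70), with resistin, Retn (-1.83), and Cidea of brown fat (-1.70) beside Adipoq and Thrsp. Mouse pulmonary veins carry heart muscle, and fat and heart lie beside the lung. How much of either tissue was in each sample was not measured, and its part in these falls was not tested.

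Enzymes that process foreign compounds fell almost throughout. Of 18 phase I genes 14 fell, every one of them in both sets, and 2 rose. Cyp2e1 read 3087, 2996, 1772 and 2082 on Day 0, 658, 515 and 505 in No. 1-3 and 495 and 866 in No. 4-5. The aldehyde oxidase Aox3 (-1.63), the aldehyde dehydrogenase Aldh3a1 (-1.46), the carboxylesterase Ces1f (-1.45) and the cytochromes Cyp4b1 (-1.30) and Cyp2b10 (-1.22) fell, and the alcohol dehydrogenase Adh1 rose (0.47). Glutathione and antioxidant genes split, 6 up and 8 down of 20 (1 and 7 in both sets). The glutathione transferases Gsta3 (-1.32) and Gstm1 (-1.28) fell, catalase, Cat, fell by 1.00, haem oxygenase, Hmox1, rose (1.41), and Nqo1, the usual reporter of the regulator NRF2, was at 0.11, adjusted p = 0.704. Among 10 genes of iron and haem 6 rose (3 in both sets), with the lysosomal iron exporter Slc11a1 at 1.11, and hepcidin, Hamp, fell (-1.36).

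Fatty acid oxidation genes fell in 7 of 14 (3 in both sets), led by the regulator Ppara (-1.40) and the heart-type carrier Fabp3 (-1.16), while the gate enzyme Cpt1a was at -0.04, adjusted p = 0.803. Glycolysis and hypoxia genes rose in 7 and fell in 1 of 18 (4 and 1 in both sets), with pyruvate kinase, Pkm (0.86), and hexokinase 3, Hk3 (0.83), up and the hypoxia target Car9 at -0.20, adjusted p = 0.427. Clock genes fell in 7 and rose in 2 of 15 (5 and 1 in both sets). The output factors Hlf (-1.21) and Dbp (-1.07) and the repressor Nr1d1 (-0.94) fell, and the core activator Arntl was at 0.04, adjusted p = 0.914. The sources used here do not give the hour at which lungs were taken. Of 11 glucocorticoid and metallothionein genes 3 rose and 4 fell (2 and 2 in both sets), with Mt2 (1.51) and Mt1 (1.05) up and Klf9 (-0.81) down. Gene groups near the background or below it were the cytosolic ribosomal proteins (0 up and 1 down of 15, or 6 down on the values as deposited), mitochondrial complex I (0 and 5 of 23), the proteasome (6 and 0 of 24) and sterol and fatty acid synthesis (1 and 0 of 17). In the endoplasmic reticulum, which folds secreted proteins, 7 of 22 genes rose (3 in both sets) and 3 fell. Sdf2l1 rose by 1.24, with 1.89 in No. 1-3 and 0.27 in No. 4-5, and the main chaperone Hspa5 was at 0.01, adjusted p = 0.975.

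**Figure D3:**
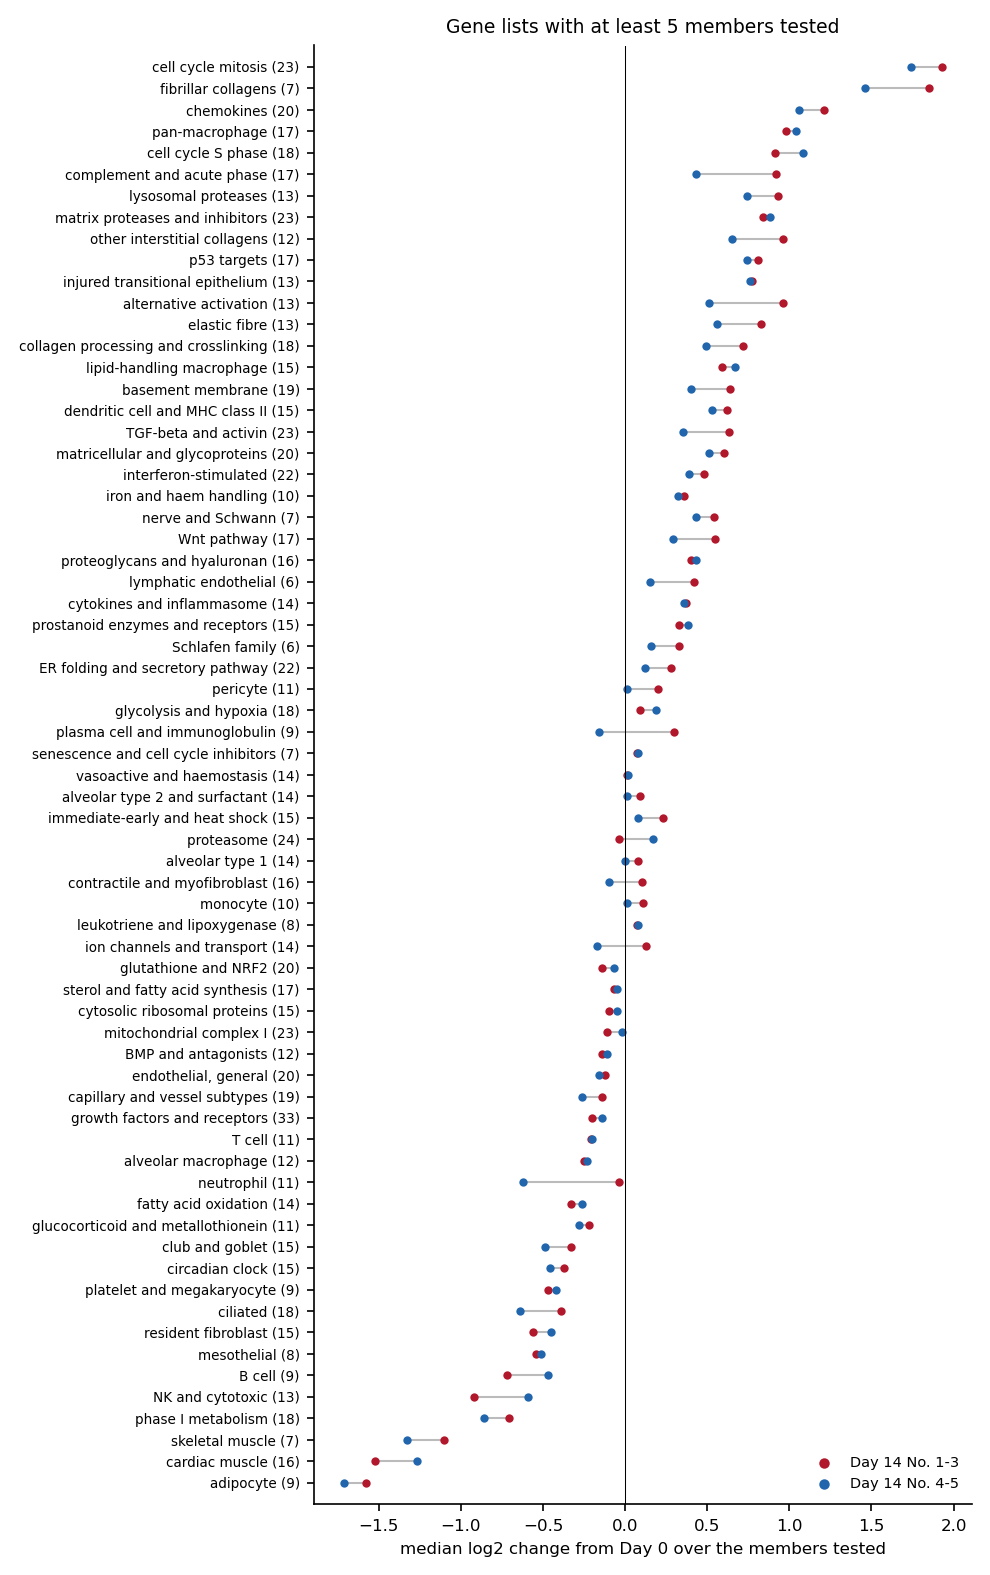
Median log2 change from Day 0 over the members tested of each gene list, in Day 14 No. 1-3 (red) and No. 4-5 (blue), with the number of members tested in brackets. The lists of mitosis and fibrillar collagens lie highest and those of adipocytes, cardiac muscle and skeletal muscle lowest in both sets, while the median of ciliated genes lies lower in No. 4-5.

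Prostanoid genes bear on the receptor that the series deletes in its other mice. Ptgfr, which encodes FP, read 268, 340.0, 361 and 251 on Day 0, 176, 134 and 163 in Day 14 No. 1-3 and 190.3 and 257 in No. 4-5. Its log2 difference was -0.75 ± 0.23 (adjusted p = 0.0118), with -0.95 in No. 1-3 and -0.45 in No. 4-5, where it did not pass. Day 14 No. 5 lay within the Day 0 range, and the 3 Ptgfr probe sets that could be tested all passed in this direction. Of 15 prostanoid genes 7 rose and 2 fell (2 and 1 in both sets). The prostaglandin E receptors Ptger4 (1.20 ± 0.14) and Ptger3 (0.67 ± 0.21), the prostaglandin E synthase Ptges (0.75 ± 0.17) and the thromboxane synthase Tbxas1 (0.74 ± 0.18) rose, the degrading enzyme Hpgd fell (-0.53), and cyclooxygenase 2, Ptgs2, was at 0.30, adjusted p = 0.0576. Of 8 leukotriene and lipoxygenase genes the receptor Cysltr1 (1.08 ± 0.22), the activating protein Alox5ap (0.73 ± 0.16) and the hydrolase Lta4h (0.36 ± 0.12) rose, and the lipoxygenase Alox12 (-0.51) and the transferase Ggt5 (-0.42) fell. The mean of all Lta4h probe sets passed the other way, at -0.35.

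The sets of Day 14 lungs differed from each other in many genes, mostly by little. No. 1-3 and No. 4-5 did not overlap in 2839 genes with No. 1-3 higher (23.5%) and 2915 with No. 1-3 lower (24.2%), and the difference was at least 1 on the log2 scale in 67 and 73 of these. Among the 8 genes furthest above No. 4-5 were the antibody light chain segments Igkv9-120, Igkv6-14 and Igkv15-103. Igkv15-103 is the 1 gene that passed up in No. 1-3 (1.08) and down in No. 4-5 (-1.02), and probe sets of such segments can share sequence. Among the 8 furthest below were Evi5, a regulator of the cell cycle, the condensin subunit Smc4 and the kinase subunit Csnk2a1. Evi5 read 3428, 2875, 2956 and 2991 on Day 0, 599, 581 and 533 in No. 1-3 and 3099 and 2684 in No. 4-5. On this probe set No. 4-5 lay close to the Day 0 lungs, and No. 1-3 far below both. The other Evi5 probe set that could be tested had a difference of -0.02 between the sets, beside -2.34 for this one.

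Other probe sets of the same genes were read as a check on these differences. For the genes that rose in both sets by at least 1, 185 of 203 other probe sets (91.1%) also passed upward, with a median of 1.43 beside 1.44 for the brightest probe sets. For those that fell, 61 of 74 (82.4%) passed downward, with a median of -1.04 beside -1.24. Where No. 1-3 lay above No. 4-5 by at least 1, 18 of 26 other probe sets (69.2%) separated the sets in the same direction. Where No. 1-3 lay below, 26 of 96 did (27.1%), and their median difference was -0.02 beside -1.34. Only 45 of the 73 genes have another probe set that could be tested. Those of Smc4 lay at 0.10 and 0.52 and those of Csnk2a1 at -0.17 to 0.42.

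**Figure D4:**
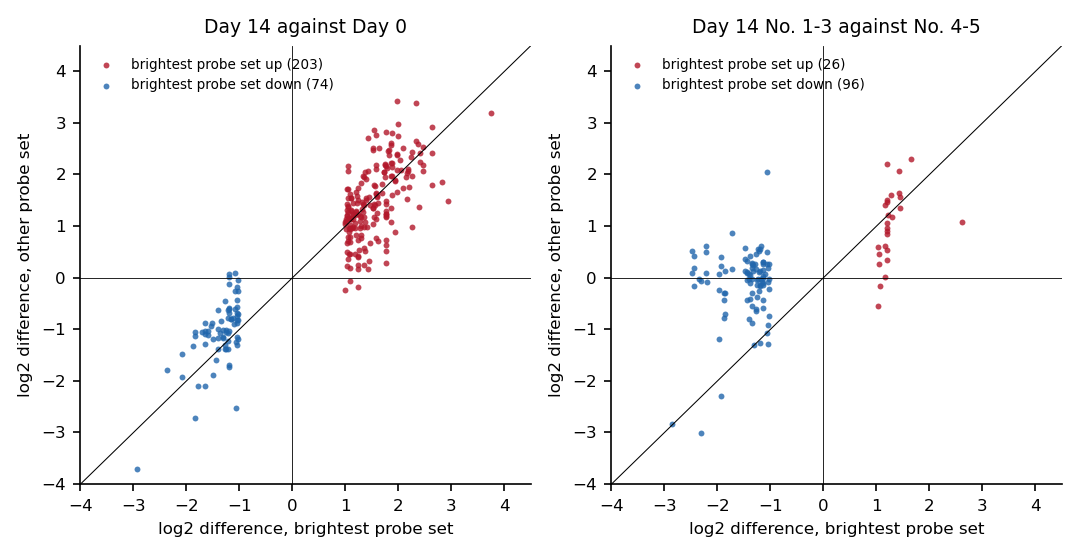
Log2 difference of each gene's brightest probe set (horizontal) and of its other probe sets (vertical), for Day 14 against Day 0 (left) and for Day 14 No. 1-3 against No. 4-5 (right). On the left the points follow the line of equal difference, whereas on the right most points with a low brightest probe set lie near 0 on the vertical axis.

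Day 14 differed from Day 7 in fewer genes, 430 higher (3.56%) and 286 lower (2.37%) at Day 14, and the count depended on the set. With arrays scaled to a common median it was 370 higher and 78 lower. With No. 1-3 alone at Day 14 it was 1306 higher and 1208 lower, and with No. 4-5 alone 6 higher and 0 lower. The 6 were C1qtnf3, Cdk19, Kng1, Lama3, Thbs3 and Ube2h. Leaving out any 1 of Day 7 No. 1, No. 2 or No. 4 or of the 5 Day 14 lungs also moved the count by over 1.5 times, to between 120 higher and 73 lower without Day 7 No. 1 and 812 and 633 without Day 14 No. 5. C1qtnf3, a secreted protein of mesenchymal cells, read 68.3, 67.6, 56.8 and 45.4 on Day 0, 38.5, 24.4, 67.0 and 55.5 on Day 7 and 185, 265 and 238, then 153 and 173 in the Day 14 sets (2.20 ± 0.26 against Day 7). Both sets lay above all lungs of Day 0 and Day 7. Fmod lay at 806 to 1303 on Day 14, above its Day 0 range of 245 to 382 and its Day 7 range of 333 to 500.5 (1.38 ± 0.17), and Nnat, neuronatin, from 436 to 555 to 824 to 1379.5 (1.23 ± 0.16). Basement membrane genes were higher than on Day 7 in 8 of 19, type 1 genes in 8 of 14 and type 2 genes in 5 of 14, with none lower. Lamb3 (1.01), Cldn18 (0.92) and Ager (0.42) are examples. Fibrillar collagens did not pass against Day 7 (0 of 7), with Col1a1 at 0.67 (adjusted p = 0.0803).

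Lower at Day 14 than at Day 7 were 4 of 20 chemokines, 2 of 14 cytokine and inflammasome genes and genes of other kinds. Sprr1a fell back from 2411, 1726, 978 and 889.8 on Day 7 to 184, 233 and 182 in No. 1-3 and 537 and 298 in No. 4-5 (-2.39 ± 0.40), still above Day 0. The chemokines Ccl7 (-1.92), Ccl2 (-1.76) and Ccl17 (-1.67), Timp1 (-1.18), the lectin receptor Clec4e (-1.41) and the orphan receptor Gpr171 (-1.49) were lower as well. Heart muscle genes were lower than on Day 7 in 5 of 16, Nppa (-1.43) and Cox8b (-1.16) among them. Their mean per mouse, against the Day 0 mean, was -1.23 to -0.56 on Day 7. It was -1.39, -1.81 and -1.52 in No. 1-3 and -1.36 and -1.14 in No. 4-5, so that No. 5 lay within the Day 7 range. Ccl2 read 42.9 to 83.8 on Day 0, 424 to 1019 on Day 7 and 136 to 262 on Day 14, so that no group overlapped another.

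**Figure D5:**
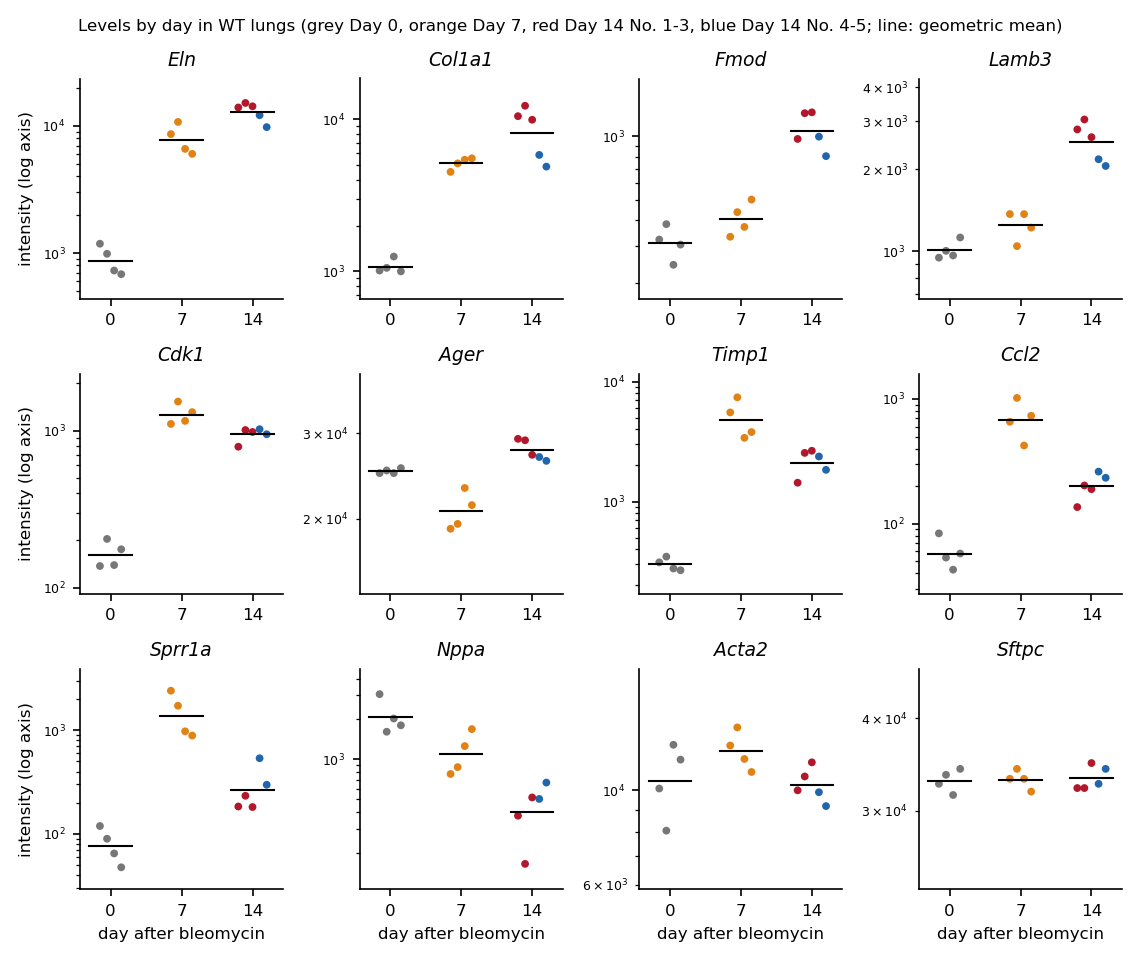
Intensity of 12 genes in each WT lung by day after bleomycin, on log axes, with a line at the geometric mean of each day. Fmod and Lamb3 are highest on Day 14 in both sets, Timp1, Ccl2 and Sprr1a are highest on Day 7, the mean of Nppa is lower on each later day, and Acta2 and Sftpc overlap between days.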

How the data were processed

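RNA intensity was measured on 25 Affymetrix arrays, and 13 of WT lungs are used for values here. Per the labels and the deposited values, the authors scaled each array to a trimmed mean intensity of 500.0 (2% cut at each end), on a linear scale. The array medians of these intensities differed by up to 0.432 on the log2 scale, so intensities were quantile-normalized, floored at their 20th percentile (24.4) and taken to log2. Of 45101 probe sets, 34945 carry 1 gene symbol in the platform annotation, of which 34741 matched RefSeq by gene number. Each of 18193 genes was read by its brightest probe set, and 12062 genes were tested, those brighter than the array median on at least 4 arrays. The means of 6 groups over all 25 arrays were fitted in limma 3.58.1 (R 4.3.3), with 19 residual degrees of freedom, and, with Day 14 split into 2 sets, 7 means with 18. P-values were adjusted over all genes tested (Benjamini-Hochberg, 0.05). The fits were tested on simulated data. The labels give 1 mouse per array and say nothing of cages or extraction, so p-values measure only the spread between these samples. The named genes are the 14 that rose and 12 that fell most (passed in both sets, groups without overlap, at most 1 array of either group at the floor), up to 5 members per list by size and its first member, the 8 most extreme genes for each of the other contrasts, and Ptgfr. Other genes named were chosen for their role after their values were seen. The members, the 69 lists and the 2 sets were chosen with earlier results of these data known. Alternatives covered the scaling, floor, filter, probe sets, model, arrays fitted, replicate block and each array left out. Promoters are from RefSeq.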

Additional observations from a re-analysis of the deposited data

Results flagged for a closer look

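In groups of 4 or 5 mice, 38 of 784 sets of values held 1 that lay far from the rest, and chance flags about 1 in 20 groups. On Day 0, mouse No. 1 was low in Mx1 (69.2), Pcolce2 (7724.7), Pex5 (165.9), Thbs1 (1080.2) and Tpx2 (58.3) and high in Cd8a (265.3), Foxj1 (957.1), Smad7 (1897.7) and Slfn9 (31.8, the other 3 at the floor). Mouse No. 2 of Day 0 was high in Gpnmb (419.0) and Krt79 (1036.1) and low in Cd8b1 (279.5), Klra8 (171.5), Mki67 (195.0) and Myl7 (4791.6). The means of the macrophage (0.18), alveolar macrophage (0.11), complement (0.15) and platelet (0.23) lists were high in that mouse against the Day 0 mean, and that of the NK list was low (-0.15). Day 0 No. 3 was high in Tgfb3 (871.2) and in the mean of the general endothelial genes (0.10). Day 0 No. 4 was low in Frzb (24.4), Prc1 (122.8), Ube2h (2943.5) and Xbp1 (9711.4).

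On Day 14, No. 1 was low in Cdk1 (788.6), in Kng1 (61.9) and in the mean of the vasoactive and haemostasis genes (-0.21). Day 14 No. 2 was high in Kif2c (269.7), and No. 3 in Aldh3a1 (267.8), Mzb1 (1324.4) and Prc1 (821.5). Day 14 No. 4 was high in Adh1 (9397.6) and Ereg (282.2) and low in Lyz2 (28205.8), and No. 5 was high in Aox3 (1978.3) and low in Col4a2 (8996.8).

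In 8 of the genes named, the 2 sets of Day 14 lungs lay on opposite sides of the Day 0 mean, and the difference was not tested. No. 1-3 lay above and No. 4-5 below it for Foxj1 (0.18 and -0.32), Igkv15-103 (1.08 and -1.02), Igkv6-14 (1.31 and -0.83) and Pecam1 (0.05 and -0.08). The order was reversed for Rufy3 (-2.22 and 0.09), Smc4 (-1.98 and 0.51), Tgfb2 (-0.59 and 0.63) and Tgm2 (-0.15 and 0.18).

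Among 3426 probe sets without a single gene symbol, which entered no comparison, 893 passed between Day 14 and Day 0 (26.1%), 279 upward and 614 downward.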

How the results depend on the processing

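Over the alternatives, 205 gene counts stayed within 1.5 times of the value reported and 43 did not. With arrays scaled to a common median, 1709 genes fell in No. 1-3, 666 in No. 4-5 and 516 in both sets against Day 0, and 78 were lower than on Day 7. Array weights gave 1810 genes higher and 1736 lower than on Day 7. With No. 1-3 as the only Day 14 lungs, 1306 were higher and 1208 lower than on Day 7. With No. 4-5 only, 1071 rose and 927 fell against Day 0, 364 list genes passed, and 6 were higher and 0 lower than on Day 7, with fewer arrays in the fit. For the other changes the cause was not tested.

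Leaving out 1 array gave 1947 to 2437 genes up and 1884 to 2494 down at Day 14 against Day 0, 2089 to 2519 and 2077 to 2604 in No. 1-3, 440 to 1170 and 286 to 1067 in No. 4-5, 429 to 1034 and 244 to 894 in both sets, and 120 to 812 and 73 to 633 against Day 7. List genes that passed numbered 518 to 582. The lowest counts of No. 4-5 and of both sets came without Day 14 No. 4, which leaves 1 array in its set, assumed to vary like the other groups.

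Day 0 and Day 14 mice of one number had correlations of -0.02, 0.10, -0.01 and -0.02 in their deviations from the group means. On Day 14 these deviations include the difference between the 2 sets, so the correlations cannot decide whether mouse numbers pair the samples. With the replicate block, 680 genes rose and 529 fell in No. 4-5, 655 and 492 in both sets, and 860 were higher and 691 lower than on Day 7.

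The direction turned for Rufy3 on the values as deposited (0.37), with a common median (0.40) and with No. 4-5 only (0.09). With No. 4-5 only it also turned for Btd (-0.01), Fam222b (0.05), Naa15 (-0.00), Pak1ip1 (0.01), Pex5 (-0.08) and Ubl7 (-0.00). With the mean of all probe sets it turned for Axin2 (0.18), Lta4h (-0.35), Tgfb2 (0.59), Tgm2 (0.27), Tpm1 (-0.08) and Ube2h (0.04).

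Among the genes named as changed, Alox12 did not pass under 16 of 23 alternatives, Aqp4 under 15 of 24, Postn under 14, C5ar1, Cnn1, Naa15 and Pak1ip1 under 10 each, and Btd, Fam222b, Fos and Ggt5 under 9 each.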

Other observations

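Some gene groups of the wild-type lungs went both ways between Day 14 and Day 0. Of 15 immediate-early and heat shock genes 5 rose, led by the transcription factors Egr2 (1.60 ± 0.21) and Junb (0.94 ± 0.17), and the small heat shock protein Hspb1 fell (-0.29). Fos rose by 0.69, with 1.09 in No. 1-3 and 0.08 in No. 4-5. Of 14 genes of vessel tone and clotting 4 fell. These were Ednrb, the guanylate cyclase subunit Gucy1a1 (-0.51), thrombomodulin, Thbd (-0.57), and the angiotensin receptor Agtr1a (-0.41). The protein C receptor Procr rose (0.92). Of 7 genes of senescence and cell cycle arrest, Cdkn1a, the nuclear lamin Lmnb1 (1.05 ± 0.17) and the lysosomal galactosidase Glb1 (0.77 ± 0.10) rose, and Igfbp3 and Cdkn1c (-0.39) fell. Lmnb1 is known to fall in senescent cells and to rise with division.

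Schlafen genes, which are induced by interferon, rose in 2 of 6 and none fell. Slfn2 rose by 0.58 ± 0.14, and Slfn9, at the floor in 3 of 4 Day 0 lungs, read 205 to 279.7 on Day 14. Among 14 genes of ion and water transport the water channel Aqp5 of type 1 cells (0.48) and the amino acid transporter Slc6a14 (0.57) rose. The chloride channel Cftr (-0.63), the water channel Aqp4 (-0.39, not past the threshold under 15 of 24 alternatives) and the zinc transporter Slc39a8 (-0.69) fell, and the sodium channel subunit Scnn1a was at -0.01, adjusted p = 0.934. Of 3 genes of mast cells, basophils and eosinophils the mast cell chymase Cma1 fell (-0.84), and none of 3 erythroid genes tested passed, with Alas2 of haem synthesis at -0.54, adjusted p = 0.353.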
